A study of Mus musculus with 6 samples.

Results

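The microglia genes are 31 genes that mark the resident macrophages of the brain. Every probe set that the platform annotation gives to exactly 1 of these symbols was taken, which made 46 probe sets for 31 of the 18194 genes on the array. They were measured in hippocampal total RNA on 6 Affymetrix mouse arrays, 3 from inhibitor-1 knock-out mice and 3 from wild-type mice. Inhibitor-1, the product of Ppp1r1a, restrains protein phosphatase 1 once protein kinase A has phosphorylated it. The labels give genotype, tissue and replicate number, and no age, sex, strain, targeted exon or agent. They do not say whether each array held the RNA of a separate animal, so a p-value here measures the spread between arrays, which may be technical.

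Microglia enter the brain from the yolk sac early in development and then renew themselves locally. They survive on signalling through the receptor Csf1r, are held in their resting program by transforming growth factor beta, and are shaped by the transcription factors encoded by Spi1 and Irf8. They sense nucleotides with P2Y receptors, receive the neuronal chemokine fractalkine through Cx3cr1, make most of the brain's C1q, and clear debris and synapses. Several genes in the list are not theirs alone: Ptprc, Cd53, Itgam and Fcer1g are used by blood leukocytes, and Mertk and Tgfbr1 also by other brain cells.

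Values are probe set intensities on the deposited linear scale, and changes are knockout minus wild type on the log2(intensity + 16) scale, which understates changes of dim probe sets. The check of the genotype held: Ppp1r1a read 272, 249 and 347 in knockout and 9061, 8370 and 10345 in wild type. Its log2 change was -4.93 with a standard error of 0.18 (limma adjusted p = 3.58e-07). The median intensity of an array was 542 to 666. All 11 hippocampal neuron markers and all 31 microglia genes had at least 1 probe set above the filter, which left out probe sets with a mean log2 level under 8.44. The filter kept 43 of the 46 microglia probe sets, and 26999 of all 45101.

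None of the microglia genes differed between the genotypes past the threshold, an adjusted p under 0.05. In limma, 0 of the 43 tested microglia probe sets passed, where 0.0111% of all tested probe sets did, and their adjusted p ran from 0.988 to 0.998. At an unadjusted p under 0.05, 0 were higher in knockout, against 2.17% of all probe sets, and 1 was lower, against 2.21%. All 3 knockout values lay above all 3 wild-type values for 1 microglia probe set (2.33%, against 4.97% of all tested), and below them for 2 (4.65%, against 4.91% of all). These shares are near or under those of the whole array. With each gene given by its brightest probe set, 19 of 31 had a change above 0, as did 50.1% of all 12493 genes. The median log2 change was 0.061, against 0.00033 over all genes. The mean log2 level of the 31 genes was 11.32, 11.18 and 11.34 on the knockout arrays and 11.24, 11.21 and 11.30 on the wild-type arrays, so the groups overlapped. In a bulk sample such as this, fewer microglia and less RNA per cell cannot be told apart.

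A p that misses the threshold does not show equal levels, so the intervals are given with the changes. At the brightest probe set, the 95% interval of the change lay inside -1 to 1 on the log2 scale for 30 of the 31 genes. That is within 2-fold either way. For 16 it lay inside -0.5 to 0.5, within 1.41-fold. The corresponding shares of all genes were 89.4% and 59.3%. The exception at 2-fold was Spi1, whose interval reached 1.05. At other tested probe sets the interval also went beyond 2-fold for Laptm5 (to -2.07 at the lowest), Irf8 (-1.83 to 1.30) and Tgfbr1 (to 1.22). The change itself, again at the brightest probe set, was smaller than 0.2 in either direction for 27 of the 31 genes (87.1%, against 75.2% of all genes). The other 4 were P2ry13 (-0.49), Irf8 (-0.27), Gpr34 (0.30) and Spi1 (0.36). Dimmer probe sets of Laptm5 (to -0.97) and Tgfbr1 (0.50) had larger changes than their brightest ones.

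**Figure D1:**
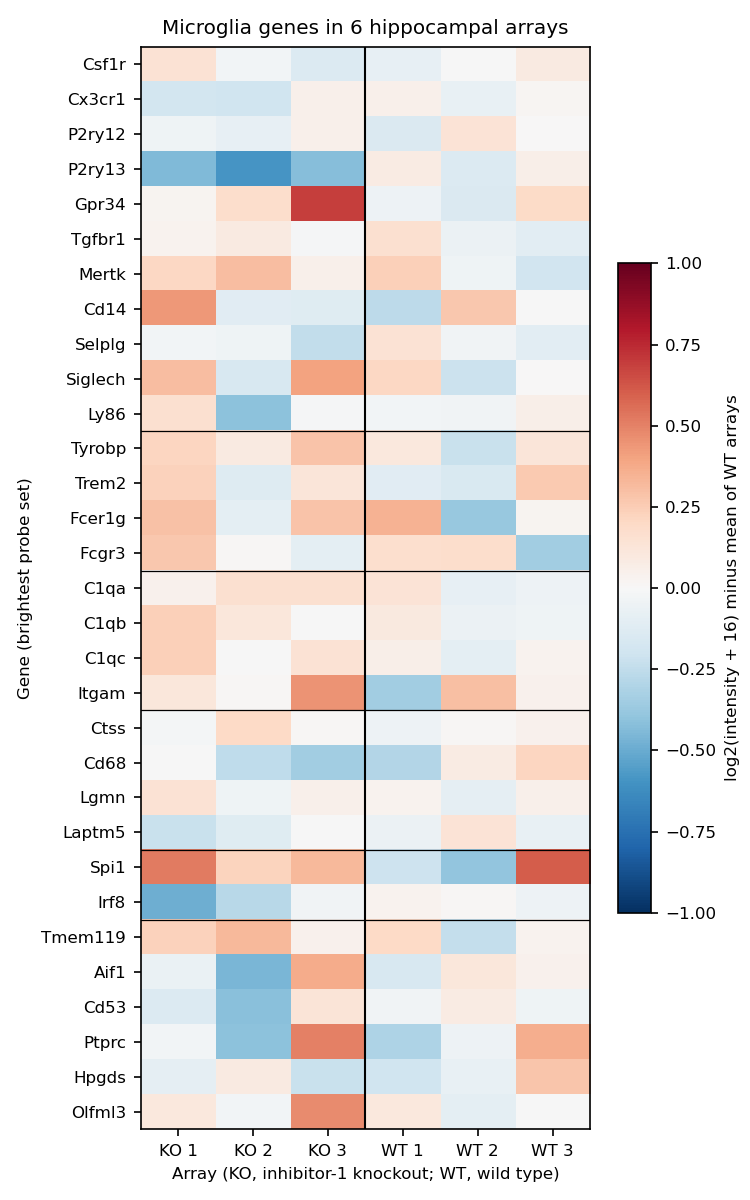
Heat map of the brightest probe set of each microglia gene (rows, in the order of the roles used in the text, separated by lines) on the 3 knockout (KO) and 3 wild-type (WT) arrays. Colour is log2(intensity + 16) minus the mean of the wild-type arrays; P2ry13 is the row whose 3 knockout cells all lie below all of its wild-type cells.

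Among the surface receptors, the P2Y purinergic receptors were the pair with unlike values. P2ry13 encodes a G-protein-coupled receptor for ADP. It read 1366, 1229 and 1378 in knockout (mean 1325 ± 82.8, SD, n = 3) and 1968, 1694 and 1934 in wild type (mean 1865 ± 149, SD, n = 3). The groups did not overlap, and the spread within each was small beside the gap. Its fold of knockout over wild type was 0.713 (95% interval 0.555 to 0.916, limma unadjusted p = 0.0127). It did not pass over all probe sets (adjusted p = 0.988), and 1 low unadjusted p among 43 probe sets is about the share the whole array gave. P2ry12 encodes the ADP receptor that draws microglial processes to sites of injury. Its intensities were 4495, 4377 and 4796 in knockout and 4191, 5091 and 4637 in wild type. The knockout values lay inside the wild-type range, with a fold of 0.984 (95% interval 0.835 to 1.16). The intervals of P2ry13 and P2ry12 overlapped, and the difference between these genes was not tested.

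P2ry12 and P2ry13 are next to each other among protein-coding genes on chromosome 3, and the bases before their starts are shown because only P2ry13 had groups that did not overlap. The windows are RefSeq's on build GRCm38.p6, 250 bases before the annotated start, minus strand, chr3:59210883-59211132 for P2ry13 and chr3:59262986-59263235 for P2ry12. Capitals mark GAGGAA, the purine-rich core of the PU box bound by PU.1, the product of Spi1, searched on both strands (GAGGAA or TTCCTC).
P2ry13: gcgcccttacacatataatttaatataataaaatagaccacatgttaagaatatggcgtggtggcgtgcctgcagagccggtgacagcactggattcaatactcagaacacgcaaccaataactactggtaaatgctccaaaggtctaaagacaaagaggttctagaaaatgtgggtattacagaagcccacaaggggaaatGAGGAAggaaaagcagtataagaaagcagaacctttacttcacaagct
P2ry12: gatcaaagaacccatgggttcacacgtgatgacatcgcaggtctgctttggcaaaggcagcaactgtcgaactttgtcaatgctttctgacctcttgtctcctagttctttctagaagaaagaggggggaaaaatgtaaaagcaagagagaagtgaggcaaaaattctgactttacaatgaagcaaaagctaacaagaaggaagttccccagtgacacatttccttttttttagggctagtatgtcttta
The window of P2ry13 holds the 6 letters once, starting 48 bases before the gene's start, and that of P2ry12 does not hold them. Windows were found for 23 of the 31 microglia genes, and 14 of these 23 genes (60.9%) had the letters in at least 1 window, against 25.9% of all 27025 genes with a window. Some genes have several windows, and counted by window the shares were 53.6% of 28 and 23.3% of 32851. The match is a description of the letters, and says nothing of the factor's binding in these samples.

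The growth factor and chemokine receptors that define microglia had 95% intervals that included no change at every tested probe set. Csf1r, the receptor for CSF1 and IL-34 that microglia need to live, read 30274, 26806 and 24876 in knockout and 25845, 27184 and 29013 in wild type at its brightest probe set. The wild-type range lay inside the knockout range, and the fold was 0.997 (95% interval 0.878 to 1.13). Its other probe sets gave folds of 0.951 and 0.968. Cx3cr1, the fractalkine receptor, read 5057, 5000 and 5951 in knockout and 5941, 5453 and 5832 in wild type. A pair of knockout values lay under the wild-type range and 1 above it, with a fold of 0.927 (95% interval 0.793 to 1.08). The other Cx3cr1 probe set had the opposite sign, with a fold of 1.09 (95% interval 0.822 to 1.44).

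Tgfbr1, a receptor subunit for transforming growth factor beta, had 3 tested probe sets with folds of 1.02, 1.05 and 1.41. The last belongs to the dimmest, at 616, 452 and 526 in knockout and 361, 441 and 316 in wild type. These groups did not overlap, but its 95% interval was 0.854 to 2.33 and its limma adjusted p 0.988. The brightest read 3172, 3294 and 3069 in knockout and 3460, 2984 and 2887 in wild type, with full overlap. Mertk, a receptor kinase for the uptake of dying cells, read 6455, 6906 and 5769 in knockout and 6566, 5425 and 4872 in wild type. The fold was 1.14 (95% interval 0.946 to 1.37), with overlap through wild type replicate 1.

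Gpr34, a receptor for lysophosphatidylserine, read 837, 933 and 1337 in knockout and 793, 742 and 942 in wild type. Knockout replicate 3 stood above the rest, and the fold was 1.23 (95% interval 0.842 to 1.80). Siglech, a sialic-acid-binding lectin used as a microglial marker, read 1397, 1000 and 1487 in knockout and 1295, 967 and 1128 in wild type, a fold of 1.14. Cd14, the co-receptor for bacterial lipopolysaccharide, read 1096, 747 and 741 in knockout and 670, 976 and 806 in wild type, a fold of 1.05. Both genes overlapped widely. Ly86, which encodes MD-1, the partner of the Toll-like protein RP105, read 4345, 2926 and 3861 in knockout and 3815, 3802 and 4047 in wild type, a fold of 0.942 with the widest spread in knockout. Selplg, the selectin ligand PSGL-1, read 3678, 3632 and 3165 in knockout and 4143, 3648 and 3482 in wild type, a fold of 0.930. Over the 11 surface receptors, 5 had a change above 0 and 6 below.

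The immunoreceptor adaptors and their partners all had changes above 0 at their brightest probe sets, and none passed. The sign was not stable for Fcgr3 and Trem2, whose log2 changes were -0.045 and -0.0028 without knockout replicate 1. Tyrobp encodes DAP12, the signalling adaptor of Trem2. It read 4513, 4129 and 4751 in knockout and 4182, 3320 and 4228 in wild type, a fold of 1.15 (95% interval 0.949 to 1.38), with 1 knockout value inside the wild-type range. Trem2, the lipid-sensing receptor, read 1602, 1243 and 1487 in knockout and 1260, 1226 and 1636 in wild type, a fold of 1.05 (95% interval 0.783 to 1.42). Its other probe set was too dim to test, at 118 to 324 in knockout and 178 to 379 in wild type. Fcer1g, the shared gamma chain of Fc receptors, read 2282, 1739 and 2268 in knockout and 2377, 1431 and 1900 in wild type, a fold of 1.12. The range of its wild-type values enclosed every knockout value. Fcgr3, a low-affinity IgG receptor, read 2275, 1897 and 1755 in knockout and 2119, 2128 and 1479 in wild type, a fold of 1.04.

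The complement genes all had changes above 0 as well, from 0.12 to 0.19 on the log2 scale, and none passed. C1qa, C1qb and C1qc encode the chains of C1q, which tags synapses and debris for uptake, and lie side by side on chromosome 4. C1qa read 6864, 7455 and 7436 in knockout and 7312, 6310 and 6417 in wild type, a fold of 1.09 (95% interval 0.943 to 1.25). C1qb read 8160, 7465 and 6881 in knockout and 7377, 6648 and 6720 in wild type, a fold of 1.08 (95% interval 0.937 to 1.25). C1qc read 7161, 6058 and 6726 in knockout and 6324, 5691 and 6227 in wild type, a fold of 1.09 (95% interval 0.941 to 1.27). For all 3 genes the groups overlapped, and wild type replicate 1 was the highest of the wild-type arrays. The other 2 probe sets of C1qb, both of a kind whose probes can also match other transcripts, gave folds of 0.972 and 1.03.

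Itgam, the CR3 complement receptor chain also called CD11b, read 758, 706 and 961 in knockout and 545, 866 and 722 in wild type, a fold of 1.14 (95% interval 0.756 to 1.73). The mean log2 level of the 4 complement genes was 12.04, 11.95 and 12.07 on the knockout arrays and 11.86, 11.90 and 11.88 on the wild-type arrays. That mean, with each gene at its brightest probe set, did not overlap between groups, though each gene alone did, and it was given no test. The means of the other roles overlapped. For 7 other complement and phagocytosis genes, described below, the mean lay the other way without overlap. It was 9.44, 9.54 and 9.57 in knockout and 9.59, 9.58 and 9.73 in wild type. The mean log2 level of choroid plexus markers was higher on average in the same arrays, at 12.04, 12.88 and 12.74 in knockout and 11.27, 12.36 and 12.34 in wild type. Its part in the complement values was not tested.

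**Figure D2:**
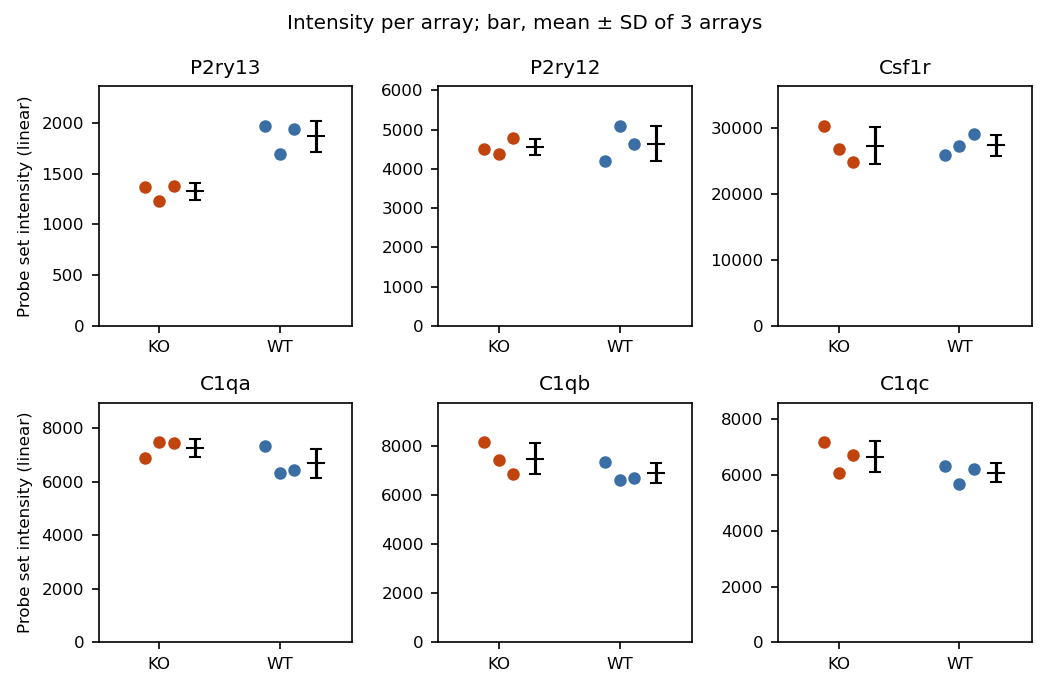
Intensity (linear axis from 0) of the brightest probe set of P2ry13, P2ry12, Csf1r, C1qa, C1qb and C1qc on each knockout (KO) and wild-type (WT) array, with the mean and SD of 3 arrays as bars. The groups are apart for P2ry13, with 1229 to 1378 in knockout and 1694 to 1968 in wild type, and overlap for the other genes.

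The windows before C1qb and C1qc are shown with the same marking, since the C1q genes had nearly the same fold at their brightest probe sets. They lie on the minus strand of GRCm38.p6, at chr4:136886201-136886450 for C1qb and chr4:136892915-136893164 for C1qc.
C1qb: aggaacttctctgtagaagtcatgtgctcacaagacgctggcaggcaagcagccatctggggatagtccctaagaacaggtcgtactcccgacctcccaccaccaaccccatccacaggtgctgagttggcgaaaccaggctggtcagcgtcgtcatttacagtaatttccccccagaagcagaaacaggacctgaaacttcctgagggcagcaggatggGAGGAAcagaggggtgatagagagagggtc
C1qc: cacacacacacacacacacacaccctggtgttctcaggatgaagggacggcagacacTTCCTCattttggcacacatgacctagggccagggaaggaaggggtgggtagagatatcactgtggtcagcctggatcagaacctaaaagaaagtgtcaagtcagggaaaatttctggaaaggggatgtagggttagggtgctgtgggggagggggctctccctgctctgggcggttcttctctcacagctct
Each window holds the letters once, starting 30 bases before the start of C1qb and, on the other strand, 193 bases before that of C1qc.

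Of the lysosomal genes, Ctss, the protease cathepsin S, read 12115, 14095 and 12328 in knockout and 11829, 12335 and 12617 in wild type, a fold of 1.05 (95% interval 0.922 to 1.19). Lgmn, the asparaginyl endopeptidase legumain, read 8944, 7831 and 8360 in knockout and 8289, 7586 and 8385 in wild type, a fold of 1.04. Cd68, a lysosomal membrane glycoprotein that is used as a stain for phagocytic microglia, read 1891, 1586 and 1484 in knockout and 1538, 2000 and 2198 in wild type. Its fold was 0.871 (95% interval 0.658 to 1.15). All 3 overlapped between the groups, and Ctss and Lgmn had some of the narrowest intervals of the list.

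Laptm5, a lysosomal membrane protein of blood-lineage cells, had 5 probe sets, the most of any gene here, and all had changes below 0. The brightest read 1770, 1902 and 2062 in knockout and 1977, 2273 and 1959 in wild type, with a fold of 0.924 (95% interval 0.737 to 1.16). The next read 1995, 1386 and 1507 in knockout and 1662, 1583 and 1766 in wild type, with a fold of 0.965. Both overlapped between the groups. The 3 dimmer ones gave lower folds with wide intervals. The dimmest read 469, 114 and 427 in knockout and 515, 727 and 520 in wild type, without overlap, a fold of 0.509 (95% interval 0.238 to 1.09). The brightest of these 3 read 513, 540 and 209 in knockout and 729, 1063 and 463 in wild type, a fold of 0.556 (95% interval 0.289 to 1.07). In each of these, 1 knockout array lay far under the others, replicate 2 in one and replicate 3 in the other. Of the 5, the brightest and the dimmest are, like the dimmer ones of C1qb, of a kind whose probes can also match other transcripts. Probe sets of 1 gene share the same RNA and are not replicates of each other.

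The transcription factor genes were dim and the intervals of their changes wide. Spi1, which encodes PU.1, read 824, 665 and 718 in knockout and 491, 429 and 873 in wild type, a fold of 1.28 (95% interval 0.790 to 2.07). Wild type replicate 3 was the highest of all 6 arrays and the other wild-type arrays were the lowest. Irf8, the interferon regulatory factor that works with PU.1, read 483, 562 and 669 in knockout and 702, 692 and 662 in wild type, a fold of 0.830 (95% interval 0.550 to 1.25). The wild-type values lay close together, and the knockout values were spread and overlapped them through replicate 3. At its other probe set knockout replicate 3 read 67.4, against 757 and 607 on the other knockout arrays and 333 to 516 in wild type.

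Of the remaining markers, Tmem119, a membrane protein that sets microglia apart from blood macrophages, read 2478, 2646 and 2169 in knockout and 2427, 1787 and 2160 in wild type, a fold of 1.15 (95% interval 0.902 to 1.46). Olfml3, a secreted protein, read 2656, 2424 and 3438 in knockout and 2655, 2299 and 2460 in wild type, a fold of 1.14 with knockout replicate 3 above the rest. Aif1 encodes the calcium-binding protein Iba1, the usual antibody target for microglia. It read 1099, 834 and 1491 in knockout and 1029, 1242 and 1187 in wild type, a fold of 0.966 (95% interval 0.671 to 1.39). The knockout values of Aif1 enclosed the wild-type range on both sides.

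Cd53, a tetraspanin of leukocytes, read 2425, 1996 and 2926 in knockout and 2608, 2827 and 2597 in wild type, a fold of 0.905. Hpgds, a prostaglandin D synthase, read 545, 618 and 494 in knockout and 503, 551 and 705 in wild type, a fold of 0.949. Ptprc encodes the leukocyte phosphatase CD45. Its tested probe set read 531, 405 and 775 in knockout and 433, 521 and 702 in wild type, a fold of 1.02 (95% interval 0.605 to 1.71), and groups overlapped for all 3 genes. The further probe sets of Cd53 and Ptprc were too dim to test, with highest readings of 180 in knockout and 267 in wild type for Cd53 and 143 in knockout and 34.1 in wild type for Ptprc.

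**Figure D3:**
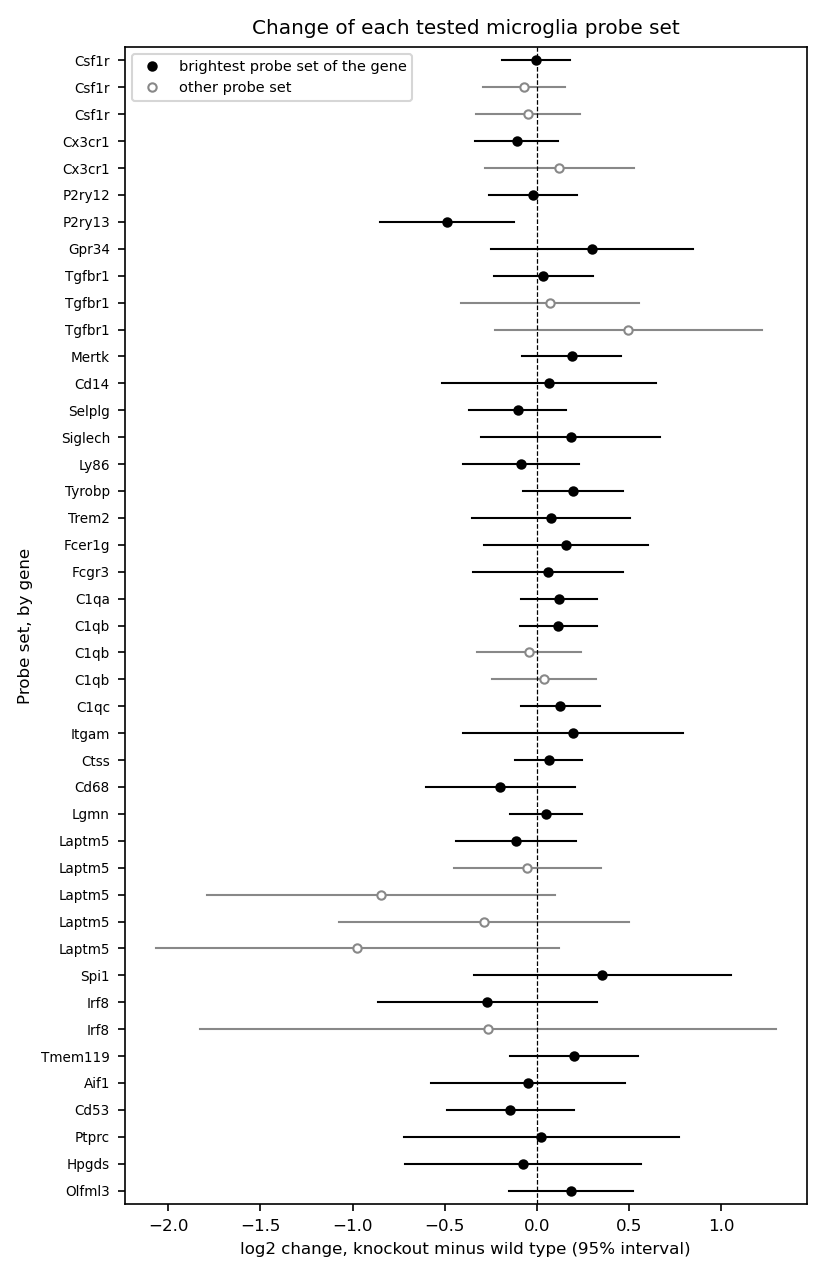
Log2 change (knockout minus wild type) with its 95% interval from limma for the 43 tested microglia probe sets, by gene. Filled points are the brightest probe set of a gene and open points the others; the interval of P2ry13 (-0.85 to -0.13) is the only one that does not cross 0.

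Precision followed brightness. The standard error of the log2 change had a median of 0.267 over the 10 dimmest of the 31 genes and 0.0966 over the 10 brightest, and ran from 0.083 (Ctss) to 0.34 (Ptprc). Its median was 0.156 over the 31 genes and 0.141 over all genes. Of the 6 genes with several tested probe sets, 4 had changes of 1 sign throughout (Csf1r, Tgfbr1, Laptm5 and Irf8), while C1qb and Cx3cr1 had both signs. These are the signs with all arrays. Without knockout replicate 3 the change was 0.75 at the dimmer Irf8 probe set and 0.061 at the brightest of Csf1r. The arrays shared some of the variation. Wild type replicate 2 had the lowest of the 6 values for 12 of the 31 genes (38.7%), against 14.2% of all genes. Knockout replicate 3 had the highest for 9 (29.0%, against 16.7% of all genes), and knockout replicate 1 for 7 (22.6%, against 18.1%).

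Genes that act with the microglia genes but are not among them were then described from lists. Of 15 tested ligands and partners of microglial receptors, 0 passed (0 at an unadjusted p under 0.05), 11 had changes above 0, and the median log2 change was 0.034. Cx3cl1, the neuronal ligand of Cx3cr1, read 35721, 31055 and 28233 in knockout and 32352, 30657 and 33318 in wild type. The ligands of Csf1r had log2 changes of -0.13 (Csf1, 95% interval -0.46 to 0.20) and 0.02 (Il34, 95% interval -0.36 to 0.40). These 3 ligands were named after their values were seen. The lowest p in this list belonged to Gas6, a bridging ligand of Mertk (0.14, limma adjusted p = 0.988), and Tgfbr2, a further receptor subunit for transforming growth factor beta (0.26, limma adjusted p = 0.988).

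Of 7 other complement and phagocytosis genes, 0 passed (0 at an unadjusted p under 0.05), 2 had changes above 0, and the median was -0.14. The lowest p values were those of Syk, the kinase downstream of Tyrobp (-0.39), and Elmo1, an engulfment adaptor (-0.14). Of 15 further genes of resting microglia, 0 passed (1 at an unadjusted p under 0.05) and 11 had changes above 0, with a median of 0.028. Of all genes, 2.44% were higher at that unadjusted p and 50.1% had changes above 0. In this list 3 genes did not overlap between the groups and were higher in knockout (20.0%, against 5.34% of all genes). Ltc4s, leukotriene C4 synthase, read 2087, 3084 and 2247 in knockout and 1405, 1683 and 2035 in wild type, without overlap. Its change on the log2 scale was 0.52 (SE 0.19, unadjusted p = 0.020, limma adjusted p = 0.988). Lpcat2, a lipid acyltransferase, read 2322, 2387 and 2221 in knockout and 1575, 1839 and 2176 in wild type, again without overlap, at a log2 change of 0.32 (limma adjusted p = 0.988). The third was Rgs10, a regulator of G-protein signalling, at 5683, 6273 and 6201 in knockout and 5670, 5257 and 5315 in wild type, named after its values were seen. Its log2 change was 0.16 (limma adjusted p = 0.988), and its closest values from the 2 groups nearly met.

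Of 22 annotated genes of activated microglia, 13 passed the filter, 0 passed the test (2 lower at an unadjusted p under 0.05, where 2.31% of all genes were), and the median change was 0.041. In this list 1 gene was higher and 1 lower without overlap, against 5.34% and 5.12% of all genes. Gpnmb, a glycoprotein of lipid-laden macrophages, read 242, 472 and 328 in knockout and 677, 616 and 698 in wild type, without overlap. Its estimate on the log2 scale was -0.95 (SE 0.34, unadjusted p = 0.017, limma adjusted p = 0.988). The knockout values of Gpnmb were dim, near the level of the filter, which was applied to the mean over all arrays. Lpl, lipoprotein lipase, read 10129, 8358 and 8755 in knockout and 9552, 10477 and 12398 in wild type (log2 change -0.25, limma adjusted p = 0.988), and the groups overlapped through knockout replicate 1. The RNA was bulk, so values of the activated and resting lists cannot be assigned to microglia alone.

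Markers of other macrophages and of blood cells were set beside these. Of 11 border-associated macrophage markers, 5 passed the filter, with a median log2 change of -0.061 and 0 past the threshold or at an unadjusted p under 0.05. Their summed intensity was 2990 to 4559 in knockout and 3346 to 4341 in wild type. The lowest p values in that list were those of Stab1, a scavenger receptor (0.39), and Pf4, a chemokine (-0.18). Of 13 blood leukocyte markers, 0 passed the filter, the highest of their 17 probe sets having a mean log2 level of 8.02. Their summed intensity was 2163 to 2845 in knockout and 2182 to 3575 in wild type. Of 2 annotated red blood cell markers, 1 passed the filter, Alas2, the heme synthesis enzyme of red cell precursors, named after its values were seen. Alas2 read 974, 1099 and 780 in knockout and 333, 663 and 533 in wild type, without overlap (log2 change 0.92, unadjusted p = 0.013, limma adjusted p = 0.988). The part of blood in the microglia values was not tested. Choroid plexus and meningeal markers had median changes of 0.60 over 13 genes and 0.41 over 13 genes, against 0.061 for microglia, and this contrast between lists was not tested. In limma 0 of either list passed, and 5 choroid plexus and 6 meningeal genes were higher at an unadjusted p under 0.05, where 2.44% of all genes were. Higher in knockout without overlap were 0 choroid plexus and 2 meningeal genes (15.4%), against 5.34% of all genes. Igf2, a growth factor named after its values were seen, is in both lists and is counted in each.

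**Figure D4:**
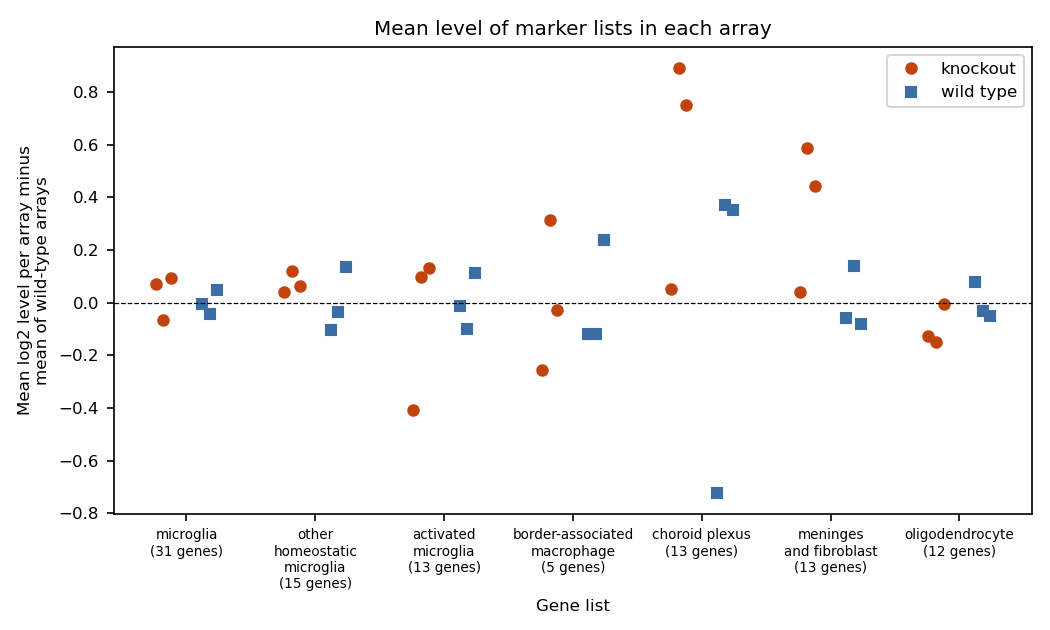
Mean log2 level of the tested genes of 7 lists on each array, minus the mean of the wild-type arrays (knockout as circles, wild type as squares, 3 arrays each). The microglia points lie close together with overlapping groups, while choroid plexus points spread over more than 1 log2 unit.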

How the data were processed

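The deposited table gives an intensity per probe set, linear and already scaled by the authors, since each array's trimmed mean (2% off each end) came to 2500. The software they used was not given in the sources used here. Probe sets were named from the platform annotation, and those with several symbols were left unnamed. No unmapped value column was present (0 columns). Values were taken as log2(intensity + 16) with no further scaling. The dimmest 40% of probe sets by mean over all arrays and 64 control probe sets (some of them among the dimmest) were left out. The genotypes were fitted in limma 3.58.1 under R 4.3.3 (group as the only term, intensity trend, two-sided) over 26999 probe sets, with Benjamini-Hochberg adjustment. The fit was tested on simulated data. The array number limits precision, and no detection calls were used. The members, lists and tests were chosen with earlier results of these data known. The text names all 31 members, Ppp1r1a and the 2 genes of lowest p in the 5 lists closest to microglia, by rule, and others where it says so. As alternatives, the pseudocount, dim filter, scaling and variance trend were changed, arrays were weighted, blocked by number or left out, and probe sets averaged per gene.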

Additional observations from a re-analysis of the deposited data

How the results depend on the processing

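In all 16 alternatives run on single probe sets, 0 microglia probe sets passed the threshold (672 values, lowest adjusted p 0.352, for P2ry13 without knockout replicate 1). P2ry13 had a log2 change of -0.55 to -0.44 and an unadjusted p of 0.0042 to 0.047 throughout. Of the 31 genes, 19 kept their sign in every alternative that gave them a value; with the dimmest 60% left out 7 genes had none, 4 of the 19 among them. The median change of the microglia genes ran from 0.0022 to 0.100 (0.061 as reported), with 0.0022 when knockout replicate 1 was left out, 0.0074 for wild type replicate 2 and 0.020 for wild type replicate 1. Probe sets lower at an unadjusted p under 0.05 numbered 3 with median scaling, 3 with array weights, 2 with the replicate block and 1 to 3 leaving out 1 array, against 1, the added ones being of Laptm5. Those higher numbered 1 without an intensity trend (Tgfbr1) and 0 to 1 leaving out 1 array (Mertk without wild type replicate 1), against 0. Non-overlapping probe sets numbered 0 higher with quantile normalization and with median scaling, and 0 higher and 1 lower with the dimmest 60% left out. They numbered 1 to 6 higher and 2 to 7 lower leaving out 1 array, where fewer values make separation easier. Dropping the first array of each genotype together, an alternative added after seeing the data because their medians were lowest, 2 were higher and 3 lower at an unadjusted p under 0.05, and 7 higher and 6 lower did not overlap. Here too, fewer arrays per genotype make separation easier. The shares of all tested probe sets were not counted under these alternatives, so the microglia counts have no background to be read against. The cause of these changes was not tested. No label pairs the arrays: same-numbered arrays correlated in their deviations from group means at 0.24, 0.054 and 0.0998. Different-numbered arrays of the 2 genotypes correlated at -0.16 to 0.11. The other scalings moved the median change of all probe sets to -0.0023 and -0.018, from 0.0040.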
